A study of Pangasianodon hypophthalmus with 14 samples.

Results

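The cytosolic ribosomal proteins of the tra catfish (Pangasianodon hypophthalmus) are described here gene by gene over 7 early stages. Members were taken by name: genes named rpl or rps followed by a digit, rplp, or rpsa, without the 4 genes for rps6k kinases, which phosphorylate ribosomal proteins but are not part of the ribosome. The rule gave 72 of the 21656 genes in the count table, and 71 of them were among the 19310 genes with enough counts to test. The remaining one, rpl3l, had 0 to 8 counts in the 14 libraries. A further 14 genes that the count table lists under LOC identifiers carry ribosomal protein names in RefSeq and are described separately, since the name rule does not take them.

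Ribosomal proteins bind ribosomal RNA to form the small subunit, which decodes the messenger RNA, and the large subunit, which joins amino acids and carries the exit tunnel for the new protein. In vertebrates their messenger RNAs share a pyrimidine-rich start that places their translation under control of mTOR, and their transcripts are among the most abundant of growing cells. Most of the proteins are needed in equal amounts in each ribosome, so the genes are commonly treated as a single housekeeping group, although several have a second, closely related gene.

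The study sampled tra catfish every other day from day 2 to day 8 after fertilization and then daily to day 11 (ages are given below as dpf), across the days when the larvae gain the ability to breathe air, with 2 RNA-seq libraries per stage. All fish were unmanipulated and of the same species, whole embryos or larvae were used, and age was the only difference that the labels give between the 7 groups. Collection day goes with age, and which libraries shared a sequencing lane is not given in the sources used here. The methods describe 2 replicates per stage, each pooled from 4 embryos or larvae, and then equal amounts of RNA from both pools entering library construction, so whether the 2 libraries of a stage hold separate fish is not certain, and the p-values measure only the spread between libraries. Markers of fast skeletal muscle, heart, liver, pancreas, red cells and dividing cells were detected in all 14 libraries, as the whole-body label implies.

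Library totals ranged from 4112131 to 11609823 counts. The libraries did not differ equally within stages. When the 2 libraries of a stage were compared gene by gene with a chi-square, which would average 1 if only reads had been sampled, the mean was 1.14, 1.15 and 1.30 at 6, 9 and 11 dpf, 3.84 and 4.03 at 8 and 10 dpf, and 19.9 and 31.6 at 2 and 4 dpf. Among the members alone it averaged 2.31, 2.11 and 5.34 at 6, 9 and 11 dpf, 115 and 88.1 at 8 and 10 dpf, and 617 and 1367 at 2 and 4 dpf. The pairs of 6, 9 and 11 dpf thus differed over all genes by little more than read sampling. Whether these pairs hold separate fish was not tested. Even so, they were kept as 2 libraries each in the main fit, which draws on the spread within all 7 stages. Their small spread thus enters the p-values and standard errors (SE) of every comparison, including those of 2 and 4 dpf. Counts of calls after adding up each of these pairs into 1 library are given beside each result. At 4 dpf the members' median was lower in replicate 1 than in replicate 2 by 0.83 on the log2 scale (7 of 71 members were higher in replicate 1), while the median over all genes differed by 0.00. At 2 dpf the members' median differed by 0.01, but single members differed by up to 1.33 on the log2 scale.

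Ribosomal protein genes took a large and changing share of the counts. The 72 members held 9.13% and 9.25% of all counts at 2 dpf, 11.0% and 16.9% at 4 dpf, 9.89% and 9.75% at 6 dpf, 6.16% and 6.89% at 8 dpf, 4.80% and 4.71% at 9 dpf, 6.62% and 5.87% at 10 dpf, then 5.11% and 5.02% at 11 dpf. The 14 genes under LOC identifiers are left out, so the share of all ribosomal protein genes was larger. The share was thus highest at 4 dpf in both libraries and lowest at 9 dpf. In a whole body, fewer cells that transcribe these genes and less of their RNA per cell cannot be told apart. Levels are given from here on as CPM, a gene's counts relative to a common library total, with edgeR's TMM factors, which set aside genes with extreme ratios. The median member had 957 and 900 CPM at 2 dpf, 1176 and 2191 at 4 dpf, 1351 and 1350 at 6 dpf, 907 and 1025 at 8 dpf, 651 and 633 at 9 dpf, 984 and 827 at 10 dpf, then 712 and 716 at 11 dpf. Of the members, 61 averaged at least 500 CPM, a level that 1.07% of all genes reached. CPM is not divided by transcript length, so an order of genes by CPM is one of counts and not of molecules.

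With each member's mean over the stages set to 0, the members' median profile on the log2 scale was 0.00 at 2 dpf, 0.78 at 4 dpf, 0.38 at 6 dpf, 0.02 at 8 dpf, -0.63 at 9 dpf, -0.08 at 10 dpf, then -0.50 at 11 dpf. The highest stage mean was at 4 dpf for 51 members, at 6 dpf for 18 and at 2 and 8 dpf for 1 each. The lowest was at 9 dpf for 42 members, at 11 dpf for 19, at 2 dpf for 8 and at 4 and 10 dpf for 1 each. The shares of all genes highest or lowest at each stage are not given here, so these counts describe the members only. By stage means the family was therefore not uniform, with the highest mean of most members at 4 dpf and that of a smaller set at 6 dpf. The 4 dpf means rested largely on replicate 2. Both 4 dpf libraries lay above both 6 dpf libraries for 34 of 71 members and below for 13. Of all genes 30.4% lay above and 30.7% below. The members' median CPM in replicate 1 of 4 dpf was below those of both 6 dpf libraries.

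**Figure D1:**
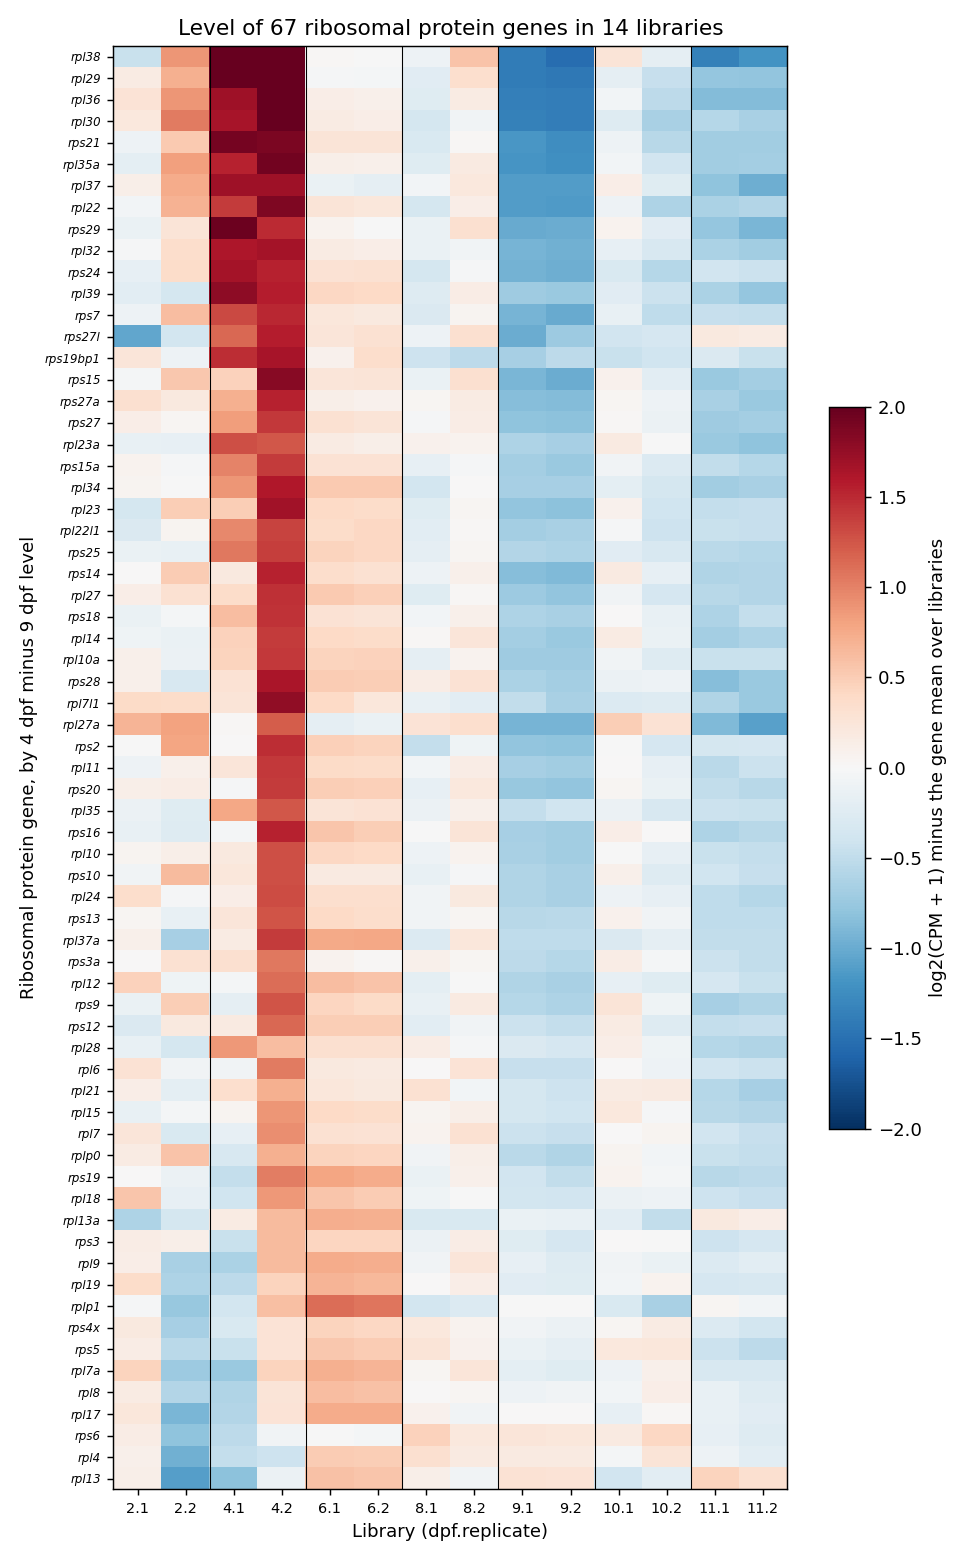
Heat map of tested ribosomal protein genes (67 of the 71, vertical, ordered by the 4 dpf mean minus the 9 dpf mean) in 14 libraries (horizontal, dpf.replicate). Colour is log2(CPM + 1) minus the gene's mean over libraries, red above and blue below, with the scale ending at 2 in each direction; genes such as rpl38 and rpl29 at the top are high at 4 dpf and low at 9 dpf, and genes such as rpl13 and rpl4 at the bottom are not.

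Over the 7 stages, 57 of 71 members were called changed, where a call needed an adjusted p under 0.05 (edgeR quasi-likelihood test, Benjamini-Hochberg adjustment over 19310 genes) and stages more than 1 apart on the log2 scale. Of all genes, 50.8% met the same rule. After adding up the near-identical pairs of 6, 9 and 11 dpf, 36 members were called. The share of all genes called in that fit is not given here, so the 36 cannot be read against the 50.8%. The p-value alone was passed by 63 members and 75.3% of all genes. The members' median distance between highest and lowest stage was 1.64 on the log2 scale, beside 1.10 over all genes.

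Between 2 and 4 dpf part of the ribosomal protein genes rose. The test called 32 of 71 members higher and 0 lower at 4 dpf, where 13.8% of all genes were called higher and 5.99% lower; by the p-value alone 44 members were higher, as were 23.4% of all genes, and 0 lower. The members' median log2 fold change was 0.91, or 1.88-fold, with quartiles of 0.49 and 1.22, and the median over all genes was 0.00. Both 4 dpf libraries lay above both 2 dpf libraries for 41 members and below for 0, as they did for 31.5% and 30.7% of all genes. The count rested in part on single libraries: it was 19 without replicate 2 of 4 dpf (18 of them among the 32), and the median was then 0.30. Other settings that lowered it were scaling by library totals, with 17 called, and a fit of only the 4 libraries compared, with 14, and with the pairs of 6, 9 and 11 dpf summed it was 30. Summed markers of dividing cells (11 genes, none at 0) moved the other way. They had 1405 and 1403 CPM at 2 dpf and 907 and 795 CPM at 4 dpf, with 6 of 11 called lower. Those of fast skeletal muscle (11 genes, none at 0) summed to 11842 and 14628 CPM at 2 dpf. At 4 dpf the muscle sums were 22621 and 24142 CPM, with 6 of 11 called higher and 1 lower. The part of these marker lists in the result was not tested.

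The 5 largest rises at 4 dpf were in rps27l, rpl39, rpl38, rps29 and rps21. rps27l, the second gene for a zinc-binding protein of the small subunit, had 12.6 and 20.7 CPM at 2 dpf, 60.7 and 81.6 at 4 dpf, 32.0 and 33.4 at 6 dpf, 24.9 and 33.9 at 8 dpf, 13.0 and 15.9 at 9 dpf, 20.5 and 21.1 at 10 dpf, then 31.0 and 30.1 at 11 dpf. Both 4 dpf libraries were above those of every other stage, and its log2 fold change at 4 dpf was 2.10 ± 0.21 (SE, edgeR adjusted p = 6.6e-07). rpl39, whose product lines the exit tunnel, had 492 and 448 CPM at 2 dpf, 1979 and 1695 at 4 dpf, 763 and 749.8 at 6 dpf, 477 and 631 at 8 dpf, 349 and 341 at 9 dpf, 485 and 424 at 10 dpf, then 368 and 335 at 11 dpf. The 4 dpf libraries were more than 2-fold above all others, and the log2 fold change was 1.97 ± 0.19 (SE, edgeR adjusted p = 4.3e-07). rps29, a short zinc-binding protein of the small subunit, had 688 and 899.9 CPM at 2 dpf, 2943 and 2122 at 4 dpf, 796 and 753 at 6 dpf, 691 and 942 at 8 dpf, 377 and 378 at 9 dpf, 791 and 648 at 10 dpf, then 442 and 400.4 at 11 dpf. Its 4 dpf libraries stood above all others, and here replicate 1 was the higher, unlike most members. The log2 fold change of rps29 was 1.67 ± 0.22 (SE, edgeR adjusted p = 1.5e-05). rps21, also of the small subunit, had 1034 and 1581 CPM at 2 dpf, 4177 and 4096 at 4 dpf, 1319 and 1322 at 6 dpf, 899 and 1120.3 at 8 dpf, 491 and 465 at 9 dpf, 1028 and 755 at 10 dpf, then 681 and 681 at 11 dpf. Its 4 dpf pair, 4177 and 4096 CPM, differed by little, and the log2 fold change was 1.66 ± 0.23 (SE, edgeR adjusted p = 2.1e-05). These 5 genes were called under every alternative that was run.

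Replicate 1 of 4 dpf separated members that were high in both libraries from members that were high in replicate 2 only. rps2, of the small subunit's messenger RNA entry site, had 2479 and 4327 CPM at 2 dpf, 2526 and 6977 at 4 dpf, 3493 and 3403 at 6 dpf, 1794 and 2367 at 8 dpf, 1451 and 1439 at 9 dpf, 2479 and 1980.1 at 10 dpf, then 1968 and 1983 at 11 dpf. Replicate 2 of 4 dpf was above all other libraries and replicate 1 lay within the range of 2 dpf, so the groups overlapped and the log2 fold change was 0.48 ± 0.35 (SE, edgeR adjusted p = 0.28). rps16, of the same subunit, had 448 and 419 CPM at 2 dpf, 485 and 1451 at 4 dpf, 732 and 700.0 at 6 dpf, 497 and 598 at 8 dpf, 314 and 309 at 9 dpf, 547 and 500.2 at 10 dpf, then 323 and 339 at 11 dpf. It was called higher at 4 dpf, at 1.16 ± 0.31 (SE, edgeR adjusted p = 0.0067), although replicate 1 of 4 dpf, 485 CPM, was close to the 448 CPM of replicate 1 of 2 dpf. The SE and p come from the fit of all 14 libraries and do not measure the spread of the 4 dpf pair. That pair was 1.58 apart on the log2 scale.

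At 6 dpf part of the family was lower than at 4 dpf. The test called 0 members higher and 18 lower than at 4 dpf, where 4.81% of all genes were called higher and 6.48% lower. By the p-value alone 6 members were higher and 30 lower, beside 14.2% and 16.3% of all genes. The members' median log2 fold change was -0.57, with -0.02 over all genes. This comparison shares the 4 dpf libraries with the one before, and the same pair decided its median: it was 0.068 without replicate 2 of 4 dpf, when 15 members were called lower and 9 higher, and -0.97 without replicate 1, when 35 were called lower and 0 higher. The largest falls were in rpl38, at -2.24 ± 0.32 (SE, edgeR adjusted p = 7.6e-05), rpl29, at -2.08 ± 0.23 (SE, edgeR adjusted p = 6.0e-06), rpl37, at -1.85 ± 0.22 (SE, edgeR adjusted p = 1.4e-05), rpl36, at -1.76 ± 0.24 (SE, edgeR adjusted p = 4.9e-05), and rpl30, at -1.72 ± 0.26 (SE, edgeR adjusted p = 0.00011). All 5 were called lower in every alternative, and with the pairs of 6, 9 and 11 dpf summed 15 members were called lower and 0 higher. The members higher by the p-value alone included rpl13, rpl4, rplp1, rpl17 and rpl8, all of the large subunit, with log2 fold changes of 0.71 to 0.99.

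Between 6 and 8 dpf, 2 members were called lower and 0 higher, beside 2.72% of all genes called lower and 3.02% higher, and the median log2 fold change was -0.36 for the members and -0.05 for all genes. By the p-value alone 6 members and 9.88% of all genes were lower. Both 8 dpf libraries lay below both 6 dpf libraries for 56 members, as they did for 37.9% of all genes. The 2 members called were rplp1, a protein of the stalk that recruits elongation factors, and rpl13a, a large subunit protein. rplp1 had 793 and 476 CPM at 2 dpf, 624 and 1226 at 4 dpf, 1745 and 1696 at 6 dpf, 624 and 668 at 8 dpf, 807 and 807 at 9 dpf, 657 and 514 at 10 dpf, then 830.4 and 775 at 11 dpf. Its 6 dpf libraries were above all others, and the log2 fold change from 6 to 8 dpf was -1.41 ± 0.28 (SE, edgeR adjusted p = 0.0020). rpl13a had 644 and 777 CPM at 2 dpf, 1117 and 1549 at 4 dpf, 1641 and 1620.2 at 6 dpf, 806 and 806 at 8 dpf, 910.4 and 898 at 9 dpf, 854 and 705 at 10 dpf, then 1137 and 1086 at 11 dpf. Both 8 dpf libraries, at 806 CPM, were below both 6 dpf libraries, and the log2 fold change was -1.02 ± 0.20 (SE, edgeR adjusted p = 0.0019). The count was 1 under DESeq2, under relative log expression (RLE) scaling, with TMM factors from the other genes, with only the 4 libraries and without replicate 2 of 4 dpf, 4 with library totals, and 0 with the summed pairs, when 2 members passed the fold threshold and an unadjusted p (edgeR).

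From 8 to 9 dpf the test called 11 members lower and 0 higher, beside 0.818% of all genes called lower and 0.461% higher. By the p-value alone 17 members and 2.82% of all genes were lower. The members' median log2 fold change was -0.61, or 0.657 times the 8 dpf level, and the median over all genes was -0.05. Both 9 dpf libraries lay below both 8 dpf libraries for 64 of 71 members and above for 4, while 34.4% of all genes lay below. The 11 were rpl38, rpl29, rpl36, rpl27a, rpl37, rpl35a, rpl30, rps29, rps21, rpl22 and rps27l, so 8 were from the large and 3 from the small subunit. The largest fall was in rpl38, at -1.73 ± 0.32 (SE, edgeR adjusted p = 0.0069), followed by rpl29, at -1.50 ± 0.22 (SE, edgeR adjusted p = 0.0016), and rpl36, at -1.35 ± 0.24 (SE, edgeR adjusted p = 0.0055). The count fell when libraries of these stages were left out or added up: it was 9 without replicate 1 and 1 without replicate 2 of 8 dpf, 0 without either 9 dpf replicate (edgeR; 11 without replicate 1 and 12 without replicate 2 at an unadjusted p), and 0 with the near-identical pairs summed (11 unadjusted). It was 7 with library totals. The members' median stayed between -0.73 and -0.50 when any 1 library was left out. Summed markers of acinar pancreas (4 genes, none at 0) were also lower, with 570 and 566 CPM at 8 dpf and 312 and 305 CPM at 9 dpf and 2 of 4 called, and those of dividing cells (11 genes, none at 0) had 1172 and 1167 CPM at 8 dpf and 974 and 965 CPM at 9 dpf with 0 of 11 called (edgeR; 1 lower by the p-value alone). Those of fast skeletal muscle ranged from 47322 to 48774 CPM over these 4 libraries. The part of these markers in the result was not tested.

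At 10 dpf most members were higher than at 9 dpf, but few were called. The test called 5 members higher and 0 lower, beside 0.792% of all genes called higher and 0.218% lower, and by the p-value alone 9 members and 1.41% of all genes were higher. The median log2 fold change was 0.54 for the members and 0.02 for all genes, and both 10 dpf libraries were above both 9 dpf libraries for 63 members and for 28.8% of all genes. The 5 were rpl38, at 1.52 ± 0.32 (SE, edgeR adjusted p = 0.018), rpl27a, at 1.33 ± 0.25 (SE, edgeR adjusted p = 0.010), rpl36, at 1.11 ± 0.24 (SE, edgeR adjusted p = 0.021), rpl29, at 1.11 ± 0.22 (SE, edgeR adjusted p = 0.015), and rpl37, at 1.08 ± 0.22 (SE, edgeR adjusted p = 0.015). All 5 are large subunit genes, and the comparison shares the 9 dpf libraries with the one before. None was called when replicate 1 or 2 of 9 dpf or replicate 1 of 10 dpf was left out or when the pairs were added up (edgeR; 6, 5, 2 and 5 at an unadjusted p). The acinar pancreas markers moved in the same direction, to 678 and 650 CPM at 10 dpf with 1 of 4 called higher. Those of dividing cells had 932 and 882 CPM. The part of these marker lists was not tested. The pancreas markers did not follow the members at every step. They rose from 330 and 439 CPM at 4 dpf to 1176 and 1190 at 6 dpf, where the members' median fell. At 11 dpf they rose again, to 1196 and 1206 CPM, while the members' median fell. At 4 and 8 dpf they moved in the members' direction.

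From 10 to 11 dpf, 2 members were called lower and 0 higher, beside 0.445% of all genes called lower and 0.699% higher, and by the p-value alone 5 members and 1.69% of all genes were lower. The median log2 fold change was -0.39 for the members and 0.00 for all genes. The 2 were rpl27a, at -1.39 ± 0.26 (SE, edgeR adjusted p = 0.0071), and rpl38, at -1.33 ± 0.32 (SE, edgeR adjusted p = 0.031). The count was 1 without replicate 1 or 2 of 6 dpf, replicate 1 or 2 of 9 dpf or replicate 2 of 10 dpf, and 0 when replicate 1 of 10 dpf or either 11 dpf library was left out or when the pairs were added up (edgeR; 2 at an unadjusted p in each of these).

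Over the whole span, from 2 to 11 dpf, 9 members were called lower and 0 higher. Of all genes 8.22% were called lower and 12.6% higher, so by calls alone the members' share lower was only somewhat above the background. Both 11 dpf libraries lay below both 2 dpf libraries for 54 of 71 members and above for 4. Of all genes 38.6% lay below and 33.9% above. By the p-value alone 30 members were lower and 4 higher, beside 22.4% and 20.5% of all genes. The median log2 fold change was -0.54 for the members and -0.06 for all genes. The largest falls were in rpl27a, at -1.73 ± 0.26 (SE, edgeR adjusted p = 4.2e-05), rpl38, at -1.65 ± 0.32 (SE, edgeR adjusted p = 0.00052), rpl36, at -1.48 ± 0.24 (SE, edgeR adjusted p = 0.00011), rpl37, at -1.36 ± 0.22 (SE, edgeR adjusted p = 9.5e-05), and rpl30, at -1.30 ± 0.26 (SE, edgeR adjusted p = 0.00062). The other 4 called lower were rpl29, rpl35a, rpl7l1 and rps15. Without replicate 1 of 2 dpf 19 were called lower and 2 higher, and without replicate 2 of 2 dpf 5 were called lower, 4 of them among the 9, and 1 higher. With library totals 22 were called lower and 0 higher, and with the pairs of 6, 9 and 11 dpf summed 6 and 0. Of the 4 that passed the p-value alone as higher, rps27l had the largest log2 fold change, 0.87 ± 0.21 (SE, edgeR adjusted p = 0.0034), followed by rpl13, at 0.75 ± 0.28 (SE, edgeR adjusted p = 0.042).

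**Figure D2:**
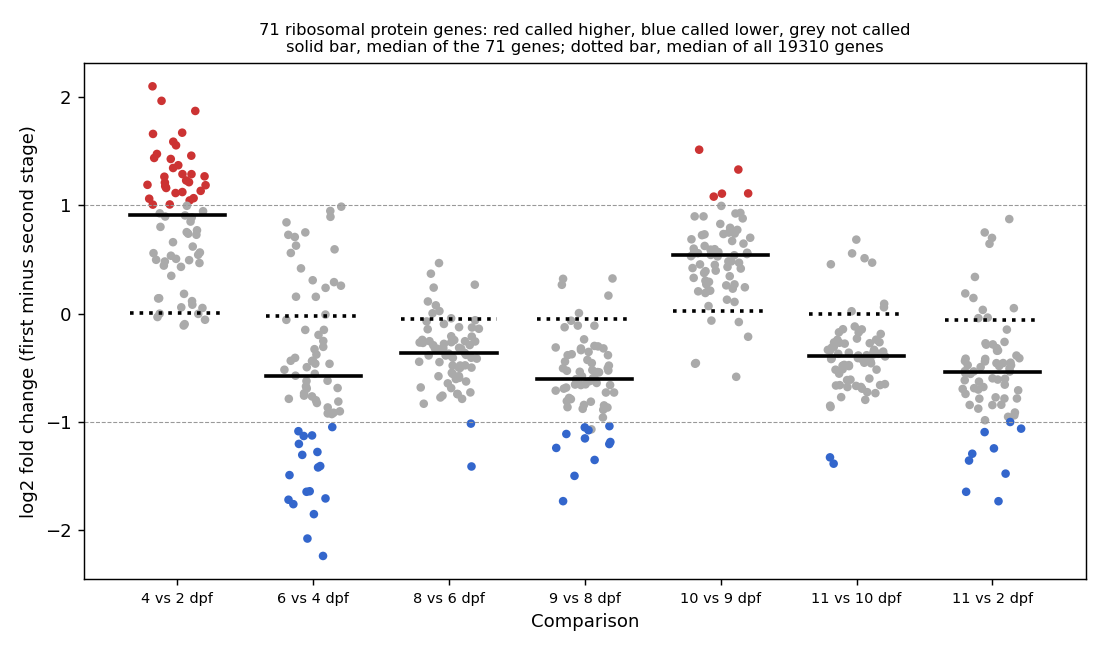
Log2 fold changes (vertical) of the 71 ribosomal protein genes in 6 adjacent comparisons and in 11 against 2 dpf (horizontal). Each point is a gene, red if called higher, blue if called lower and grey otherwise; solid bars are the members' medians (0.91 at 4 dpf, -0.61 at 9 dpf), dotted bars the medians of all 19310 genes, and dashed lines the fold threshold.

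The large subunit (41 tested members) and the small subunit (29, without rps19bp1) gave like medians in each comparison. At 4 dpf their median log2 fold changes were 0.85 and 0.93, with 17 and 14 members called higher. At 6 dpf they were -0.50 and -0.69, with 10 and 7 called lower, at 9 dpf -0.60 and -0.62, with 8 and 3 called lower, and at 10 dpf 0.47 and 0.56, with 5 and 0 called higher (edgeR; 0 small subunit genes). Of all genes 13.8% were called higher at 4 dpf and 6.48% lower at 6 dpf. The shares were 0.818% lower at 9 dpf and 0.792% higher at 10 dpf. No test of a difference between the subunits was run.

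The members furthest from the median profile went in opposite directions. By the root mean square distance over 7 stage means, the furthest included rpl38 (0.72), rpl13 (0.71), rpl29 (0.62), rpl4 (0.61), rps6 (0.60), rpl30 (0.58), rpl36 (0.58), rplp1 (0.54) and rps21 (0.50). Of these, rpl38, rpl29, rpl30, rpl36 and rps21 had a steeper peak at 4 dpf and a deeper dip at 9 dpf than the family, and rpl13, rpl4, rps6 and rplp1 had neither.

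rpl38, a short large subunit protein that in mouse is needed for translation of certain Hox messages, was called in 5 of the 6 adjacent comparisons, more than any other member. It had 309 and 775 CPM at 2 dpf, 1821 and 2151 at 4 dpf, 424 and 416 at 6 dpf, 389 and 622 at 8 dpf, 159 and 145 at 9 dpf, 500.3 and 369 at 10 dpf, then 163 and 183 at 11 dpf. The 4 dpf libraries were above all others, the 9 and 11 dpf libraries were below all others, and between the 2 dpf libraries it differed more than 2-fold. Its rise at 4 dpf was 1.87 ± 0.32 (SE, edgeR adjusted p = 0.00017) on the log2 scale, and its highest and lowest stage means were 3.70 apart. rpl29, a large subunit protein, had 909.6 and 1329 CPM at 2 dpf, 3416 and 3321 at 4 dpf, 799.8 and 794 at 6 dpf, 692 and 1030.2 at 8 dpf, 306 and 303 at 9 dpf, 720.4 and 593 at 10 dpf, then 475 and 468 at 11 dpf. Its 4 dpf libraries agreed closely and were more than 2-fold above all others, and the 9 dpf pair was the lowest. Its log2 fold change at 4 dpf was 1.59 ± 0.22 (SE, edgeR adjusted p = 3.0e-05).

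rpl36 and rpl37, also of the large subunit, moved with them. rpl36 had 1288 and 1969 CPM at 2 dpf, 3435 and 4415 at 4 dpf, 1167 and 1148 at 6 dpf, 903 and 1190.5 at 8 dpf, 411 and 408 at 9 dpf, 1029 and 742 at 10 dpf, then 582 and 585 at 11 dpf. rpl37, a zinc-binding protein, had 903 and 1399 CPM at 2 dpf, 2699.6 and 2707 at 4 dpf, 763 and 732 at 6 dpf, 804 and 962 at 8 dpf, 382 and 384 at 9 dpf, 916 and 704 at 10 dpf, then 476 and 422 at 11 dpf. Both were highest at 4 dpf and lowest at 9 dpf with no overlap with the other stages, and their log2 fold changes at 4 dpf were 1.27 ± 0.24 (SE, edgeR adjusted p = 0.00043) and 1.23 ± 0.22 (SE, edgeR adjusted p = 0.00024). rpl30, whose product in yeast represses its own splicing, had 1675 and 2969 CPM at 2 dpf, 4551 and 6049 at 4 dpf, 1625 and 1591 at 6 dpf, 1128 and 1370.0 at 8 dpf, 568 and 555 at 9 dpf, 1209.8 and 923 at 10 dpf, then 968 and 923 at 11 dpf. It was highest in both 4 dpf libraries and lowest in both 9 dpf libraries, and at 2 dpf replicate 2 was the higher of the pair. Its log2 fold change at 4 dpf was 1.19 ± 0.25 (SE, edgeR adjusted p = 0.0013).

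rpl27a, of the large subunit, shared the later changes but not the first. It had 337 and 369 CPM at 2 dpf, 215 and 489 at 4 dpf, 186 and 191 at 6 dpf, 255 and 266 at 8 dpf, 109.9 and 110.4 at 9 dpf, 297 and 258 at 10 dpf, then 113 and 99.0 at 11 dpf. The 4 dpf pair, 215 and 489 CPM, enclosed the 2 dpf pair, 337 and 369 CPM, and the 9 and 11 dpf libraries, at 99.0 to 113 CPM, were the lowest. Its log2 fold change was -1.24 at 9 dpf, 1.33 at 10 dpf and -1.39 at 11 dpf, and it was the 1 member with its highest stage mean at 2 dpf.

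Among the members without the early peak, rpl13, a large subunit protein, had 348 and 148 CPM at 2 dpf, 181 and 295 at 4 dpf, 478 and 469 at 6 dpf, 345 and 303 at 8 dpf, 392 and 387 at 9 dpf, 244 and 276 at 10 dpf, then 434 and 401 at 11 dpf. The 6 dpf libraries were the highest, the 9 and 11 dpf libraries came next, and the lowest were replicate 2 of 2 dpf and replicate 1 of 4 dpf. Its log2 fold change was -0.06 ± 0.28 (SE, edgeR adjusted p = 0.89) at 4 dpf, 0.99 ± 0.29 (SE, edgeR adjusted p = 0.015) at 6 dpf and 0.27 ± 0.28 (SE, edgeR adjusted p = 0.64) at 9 dpf, where the family's medians were 0.91, -0.57 and -0.61. rpl4, which reaches into the exit tunnel, had 1348 and 648 CPM at 2 dpf, 903 and 946 at 4 dpf, 1795 and 1776 at 6 dpf, 1570.1 and 1422 at 8 dpf, 1422 and 1436 at 9 dpf, 1226 and 1507 at 10 dpf, then 1178 and 1093 at 11 dpf. Its 4 dpf libraries lay within the range of the 2 dpf libraries, its 6 dpf libraries were the highest, and its 9 dpf libraries lay within or next to the 8 dpf pair.

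rps6, the small subunit protein phosphorylated by S6 kinase, had 646 and 332 CPM at 2 dpf, 405 and 551 at 4 dpf, 576 and 568 at 6 dpf, 803 and 674 at 8 dpf, 688 and 679 at 9 dpf, 661 and 774 at 10 dpf, then 517 and 485 at 11 dpf. Its stages overlapped widely, and it had the smallest range of fitted stages of the 71 members, 0.63 on the log2 scale (edgeR adjusted p over any stage = 0.077). The next smallest ranges were 0.75 for rps4x and 0.80 for rpl8 and rps3, which did not pass the p-value either. A p above the threshold does not show that these genes were constant.

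**Figure D3:**
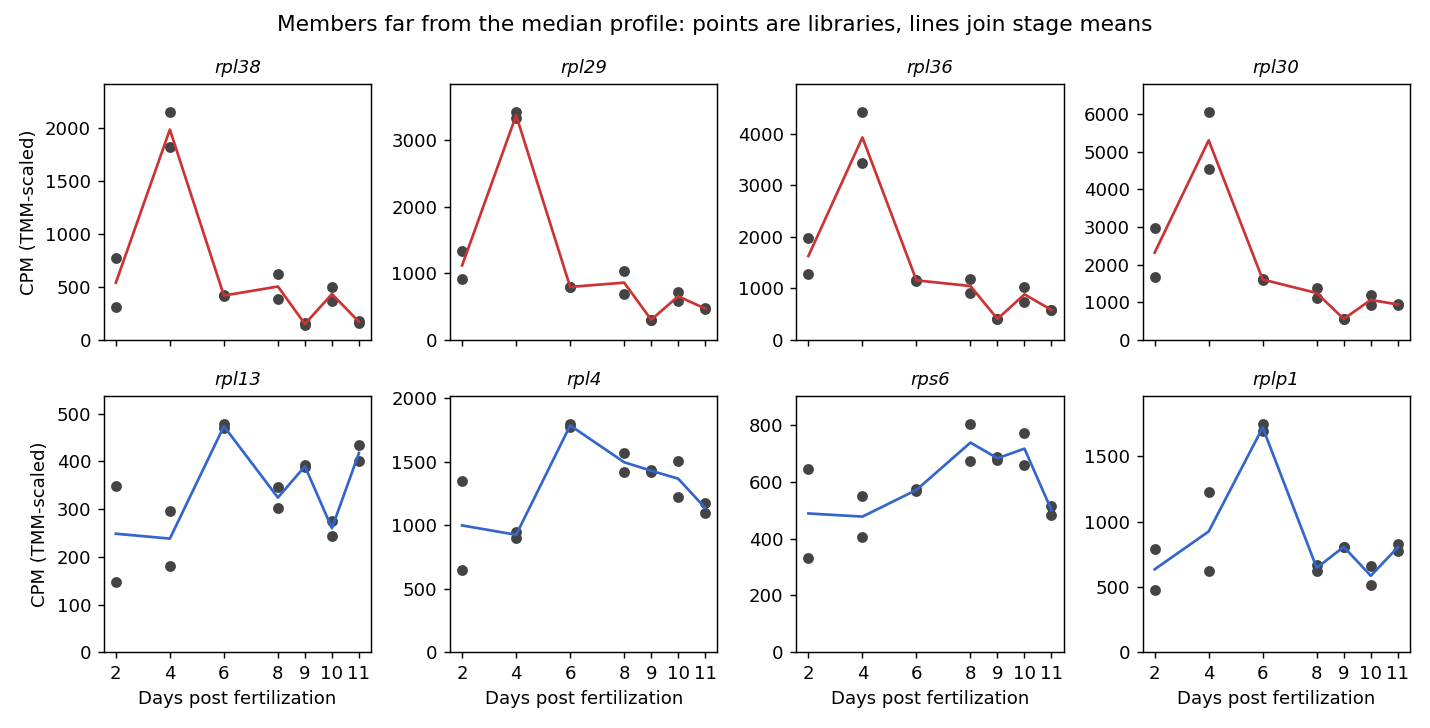
Level in TMM-scaled CPM (vertical, from 0) against days post fertilization (horizontal) for 8 of the members far from the median profile. Points are the 2 libraries of a stage and lines join the stage means; the upper 4 genes peak at 4 dpf (rpl38 at 1821 and 2151 CPM) and are lowest at 9 dpf, and the lower 4 do not.

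A related ordering of members appeared inside the 2 dpf pair. Replicate 2 minus replicate 1 of 2 dpf ranged from 1.33 on the log2 scale for rpl38 and 1.03 for rpl35a to -1.23 for rpl13, -1.17 for rpl7a and -1.15 for rpl17. Over the 71 members this difference had a Pearson r of -0.70 and a Spearman rho of -0.67 with the log2 fold change from 8 to 9 dpf, and of -0.78 and -0.73 with that from 4 to 6 dpf. Neither of these comparisons uses a 2 dpf library. Over all 19310 tested genes r was -0.04 and -0.19, and over the 1120 other genes with at least 100 CPM it was 0.02 and -0.28. All 11 members called lower at 9 dpf were higher in replicate 2 than in replicate 1 of 2 dpf, as were 22 of the other 60. The share of all genes higher in replicate 2 is not given here. The 11 were picked by the fold change already used in the correlation, so this count adds no separate evidence. The genes are points from the same libraries and fit, and are not independent replicates. The 2 dpf libraries also differed in markers: those of liver (6 genes, none at 0) summed to 5945 CPM in replicate 1 and 2492 in replicate 2, those of acinar pancreas to 218 and 132, those of fast skeletal muscle to 11842 and 14628, and those of dividing cells to 1405 and 1403. Their part in this order was not tested, and transcript lengths and RNA quality values were not used here. A sum can rest on the most abundant gene of its list. The liver sum was lower at 11 dpf than at 2 dpf, at 2398 and 2417 CPM. By the p-value alone, however, 5 of the 6 liver genes were higher at 11 dpf and 1 was lower. Of all genes 20.5% were higher and 22.4% lower. How single genes made up the 2 dpf difference was not examined.

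**Figure D4:**
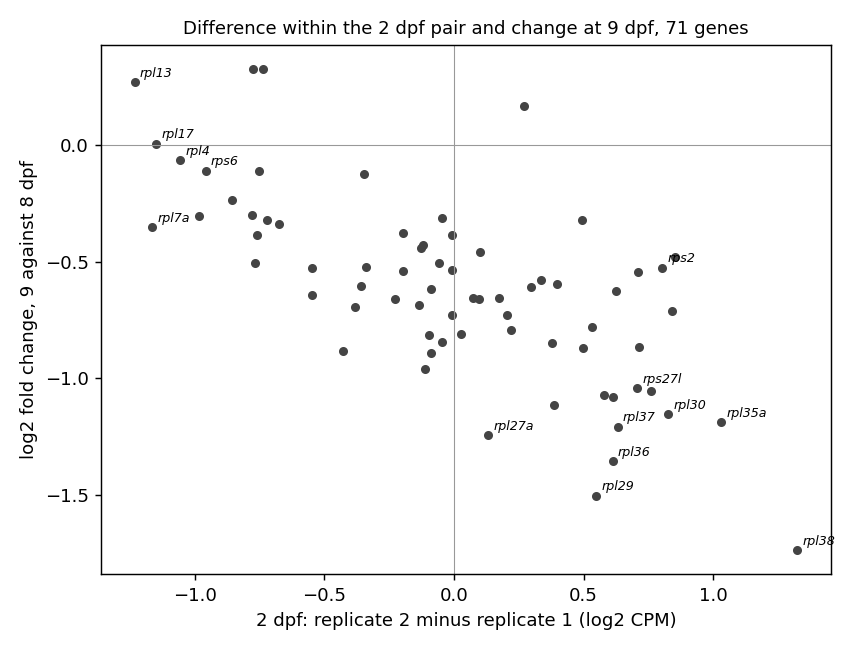
Difference between the 2 libraries of 2 dpf (horizontal, replicate 2 minus replicate 1, log2 CPM) and log2 fold change from 8 to 9 dpf (vertical) for the 71 ribosomal protein genes, each a point. Genes higher in replicate 2, such as rpl38 at 1.33, had the lower fold changes at 9 dpf (Pearson r of -0.70), and rpl13 at -1.23 was at the other end.

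Several members ran close to the family median throughout. The closest was rpl11, which with rpl5 carries a small ribosomal RNA into the large subunit and in mammals can bind Mdm2, with a distance of 0.027 on the log2 scale. It had 1271 and 1464 CPM at 2 dpf, 1614 and 3657 at 4 dpf, 1777 and 1764 at 6 dpf, 1319 and 1525 at 8 dpf, 867 and 847 at 9 dpf, 1379 and 1221 at 10 dpf, then 939 and 1016 at 11 dpf. Replicate 2 of 4 dpf was the highest library and the 9 dpf pair the lowest, but replicate 1 of 4 dpf was below both 6 dpf libraries. Its log2 fold change at 4 dpf, 0.95 ± 0.27 (SE, edgeR adjusted p = 0.010), passed the p-value and was just short of the fold threshold. The next closest were rpl10 (0.045), rps13 (0.051), rpl24 (0.076) and rpl10a (0.084).

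By mean CPM, which also grows with transcript length, the 5 highest members were rplp0 (3582), rps7 (2868), rps2 (2762), rps3a (2289) and rpl10 (2125). rplp0, the base of the stalk and a common reference gene for quantitative PCR, had 3864 and 5091 CPM at 2 dpf, 2749 and 5619 at 4 dpf, 4694 and 4626 at 6 dpf, 3286 and 3735 at 8 dpf, 2375 and 2270.2 at 9 dpf, 3549.6 and 3291 at 10 dpf, then 2527 and 2466 at 11 dpf. Its 4 dpf pair enclosed the 6 dpf pair, the 9 and 11 dpf libraries were the lowest, and the log2 fold change from 2 to 11 dpf was -0.84 ± 0.28 (SE, edgeR adjusted p = 0.020). rps7, of the small subunit, had 2340.1 and 3835 CPM at 2 dpf, 6266 and 7109 at 4 dpf, 2937 and 2865 at 6 dpf, 2038 and 2609 at 8 dpf, 1306 and 1246 at 9 dpf, 2246 and 1750.0 at 10 dpf, then 1809 and 1802 at 11 dpf. Both 4 dpf libraries were above all others, and it was called higher at 4 dpf, at 1.11 ± 0.25 (SE, edgeR adjusted p = 0.0016), and lower at 6 dpf, at -1.20 ± 0.25 (SE, edgeR adjusted p = 0.0015). Apart from rpl3l, which was too low to test (0.34), the 5 lowest were rps19bp1 (16.3), rps27l (30.8), rpl7l1 (72.6), rpl22l1 (143) and rpl22 (213). rps19bp1, which the name rule takes although its product is a partner of RPS19 and not a ribosomal protein, had 16.7 and 13.0 CPM at 2 dpf, 40.8 and 46.0 at 4 dpf, 14.8 and 18.1 at 6 dpf, 10.2 and 9.43 at 8 dpf, 8.51 and 9.42 at 9 dpf, 10.1 and 10.4 at 10 dpf, then 11.2 and 10.0 at 11 dpf. Its 4 dpf libraries were more than 2-fold above all others, with a log2 fold change of 1.56 ± 0.16 (SE, edgeR adjusted p = 1.0e-06) at 4 dpf and -1.41 ± 0.16 (SE, edgeR adjusted p = 6.2e-06) at 6 dpf.

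Genes that share a protein number differed in how far their proportions varied between libraries. How reads matching more than one gene were counted is not given in the sources used here, so the split between closely related copies is uncertain, and shares are of summed TMM-scaled CPM and not of molecules. With 2 libraries per stage no exact test of a share between stages could pass 0.05 (the smallest p is 0.333), and the shares are given as descriptions. rpl22 codes for a large subunit protein that binds RNA outside the ribosome as well, and rpl22l1 for its like-named partner. rpl22 had 169 and 286 CPM at 2 dpf, 466 and 645 at 4 dpf, 210.4 and 205 at 6 dpf, 138 and 193 at 8 dpf, 80.0 and 79.7 at 9 dpf, 163 and 114 at 10 dpf, then 113 and 116 at 11 dpf. rpl22l1 had 107 and 135 CPM at 2 dpf, 256 and 335 at 4 dpf, 168 and 175 at 6 dpf, 113 and 132 at 8 dpf, 81.5 and 83.0 at 9 dpf, 128 and 97.5 at 10 dpf, then 95.9 and 94.8 at 11 dpf. Both genes were highest at 4 dpf, and rpl22 varied the more. The share of rpl22l1 in the pair was 32.1% to 38.8% at 2 and 4 dpf, 40.6% to 46.1% at 6 and 8 dpf, 50.4% and 51.0% at 9 dpf and 44.0% to 46.1% at 10 and 11 dpf, so the 2 and 4 dpf libraries did not overlap with the later ones. These shares leave out a second gene named rpl22 (LOC113537815), which had more CPM than either gene of the pair, with 401 and 398 at 9 dpf.

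A second gene that RefSeq names rpl22 (LOC113537815) had 856 and 1316 CPM at 2 dpf, 2456 and 2557 at 4 dpf, 869.6 and 852 at 6 dpf, 855 and 1040.5 at 8 dpf, 401 and 398 at 9 dpf, 973 and 749.5 at 10 dpf, then 445 and 450.4 at 11 dpf. It was high at 4 dpf and low at 9 and 11 dpf, with a log2 fold change of 1.21 ± 0.21 (SE, edgeR adjusted p = 0.00026) at 4 dpf and -1.25 ± 0.22 (SE, edgeR adjusted p = 0.0046) at 9 dpf, and it held 79.5% to 86.8% of the sum with rpl22.

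The share of rps27l in the sum with rps27 was 2.82% and 4.83% at 2 dpf, between 4.84% and 7.96% from 4 to 10 dpf, and 11.4% and 10.9% at 11 dpf. The 11 dpf libraries were thus above all earlier ones: rps27l had 31.0 and 30.1 CPM there beside 20.5 and 21.1 CPM at 10 dpf, and rps27 had 242 and 245 beside 403 and 363. The third gene of this number, rps27.2 (LOC113545481), held 46.3% to 57.0% of its sum with rps27 and rose at 4 dpf, at 1.29 ± 0.17 (SE, edgeR adjusted p = 1.9e-05). It had 301 and 275 CPM at 11 dpf and is left out of the shares of rps27l. rpl7l1, which belongs to large subunit assembly and not to the mature ribosome in human cells, had 84.2 and 83.9 CPM at 2 dpf, 77.5 and 223 at 4 dpf, 85.1 and 75.5 at 6 dpf, 58.0 and 55.4 at 8 dpf, 45.7 and 41.1 at 9 dpf, 53.1 and 54.0 at 10 dpf, then 42.1 and 38.3 at 11 dpf. Replicate 2 of 4 dpf was more than 2-fold above all other libraries, while replicate 1 was below both 2 dpf libraries, and its share in the sum with rpl7 was 2.52% to 6.28%. It was called lower from 2 to 11 dpf, at -1.06 ± 0.30 (SE, edgeR adjusted p = 0.0082).

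The remaining pairs were those of genes listed under LOC identifiers. The second rpl19 gene (LOC113528398) had 24.2 to 81.6 CPM and held 10.3% and 4.66% of the rpl19 sum at 4 dpf, 2.98% and 5.88% at 2 dpf and 2.27% to 4.27% later. rplp2l (LOC113524030), of the stalk, held 48.5% and 40.1% of the sum with rplp2 (LOC113531464) at 2 dpf, 20.7% and 25.2% at 4 dpf, 29.4% to 41.0% from 6 to 10 dpf and 25.3% and 26.2% at 11 dpf. In this pair only rplp2 was called higher at 4 dpf, at 1.52 ± 0.32 (SE, edgeR adjusted p = 0.0012), while the value for rplp2l was 0.21 ± 0.32 (SE, edgeR adjusted p = 0.62), and the difference between them was not tested. rpl5b (LOC113530901) and rpl5a (LOC113546465) stayed near equal, with 49.3% to 60.3% for rpl5b, and rps26l (LOC113531470) held 79.7% to 89.0% of the sum with rps26 (LOC113530399).

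**Figure D5:**
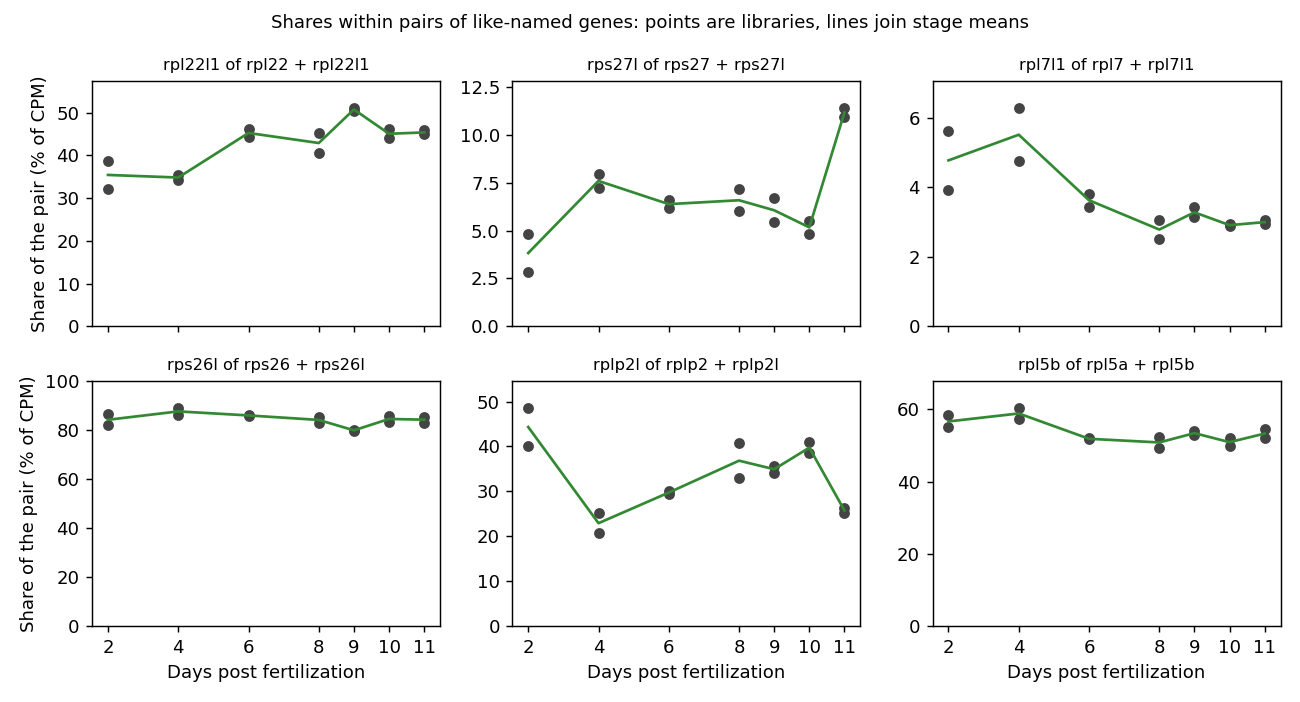
Share of the second gene in the summed TMM-scaled CPM of a pair (vertical, percent, from 0) against days post fertilization (horizontal) for 6 pairs of like-named ribosomal protein genes. Points are libraries and lines join stage means. In these pairs rpl22l1 reaches 51.0% at 9 dpf, rps27l 11.4% at 11 dpf, and rplp2l is lowest at 4 dpf, at 20.7% and 25.2%. The pairs of rpl22l1 and rps27l leave out a further gene of the same number each, LOC113537815 and rps27.2.

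rpl3l, in mammals the form of rpl3 made in heart and skeletal muscle, was at the edge of detection. Its counts were above 3 only in the 4 dpf libraries, with 4 and 8, and in replicate 2 of 9 dpf, with 5, so no fold is given. rpl3 itself (LOC113528058), at the catalytic centre of the large subunit, had 986 and 705 CPM at 2 dpf, 779 and 945 at 4 dpf, 2021 and 1979 at 6 dpf, 1306 and 1173 at 8 dpf, 1554 and 1559 at 9 dpf, 1146 and 1173 at 10 dpf, then 1356 and 1309.5 at 11 dpf. Its 6 dpf libraries were the highest and its 4 dpf libraries overlapped those of 2 dpf, as for rpl13 and rpl4, and it rose from 4 to 6 dpf, at 1.21 ± 0.20 (SE, edgeR adjusted p = 0.00025). rpl36a (LOC113531020) followed the steep genes, with 4004 and 5136 CPM at 4 dpf and 656 and 623 CPM at 9 dpf, and was called at 1.40 ± 0.24 (SE, edgeR adjusted p = 0.00021) and -1.09 ± 0.24 (SE, edgeR adjusted p = 0.018). rpl26 (LOC113529638) rose at 4 dpf, at 1.34 ± 0.21 (SE, edgeR adjusted p = 6.6e-05). rpsa (LOC113525582), also known as the laminin receptor, had 705 to 1188 CPM and the smallest range of all of these, 0.43 on the log2 scale (edgeR adjusted p over any stage = 0.195).

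Ribosomal proteins that are made as fusions or carry other names were read alongside. rps27a, made as a fusion with ubiquitin, had 1817 and 1680.3 CPM at 2 dpf, 2402 and 4246 at 4 dpf, 1585 and 1544 at 6 dpf, 1494 and 1641 at 8 dpf, 809 and 801 at 9 dpf, 1495 and 1367 at 10 dpf, then 935 and 869.8 at 11 dpf. Replicate 2 of 4 dpf was the highest and the 9 and 11 dpf libraries the lowest; its log2 fold change was 0.93 ± 0.23 (SE, edgeR adjusted p = 0.0037) at 4 dpf, short of the fold threshold, and -1.09 ± 0.23 (SE, edgeR adjusted p = 0.0020) at 6 dpf. fau, a ubiquitin-like protein fused to a small subunit protein, fell at 6 dpf, at -1.07 ± 0.28 (SE, edgeR adjusted p = 0.0087), and at 9 dpf, at -1.08 ± 0.28 (SE, edgeR adjusted p = 0.041). rack1 (LOC113542856), a scaffold protein on the small subunit, had 468 to 1077 CPM and was called in 0 of the 7 comparisons of stages (edgeR; its log2 fold change from 2 to 11 dpf, -0.71 ± 0.25 (SE, edgeR adjusted p = 0.027), passed the p-value alone).

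Other parts of the translation machinery did not all follow. Of 10 genes named as elongation factors, 4 rose and 0 fell at 4 dpf by the same rule, beside 13.8% and 5.99% of all genes. The median log2 fold change was 0.88 beside 0.91 for the ribosomal proteins. The list holds eef2l2 but no gene named eef2, and its eef1a genes were low, at 1.27 to 78.9 CPM. The 4 that rose were eef2l2, at 2.11, eef1a1a, at 1.61, eef1da, at 1.16, and eef1a1b, at 1.14. At 2 dpf eef2l2 had 11.1 and 15.5 CPM, eef1a1a 20.3 and 19.6, eef1a1b 15.5 and 15.1, and eef1da 319 and 310. Unlike the ribosomal proteins, eef2l2 was highest at 11 dpf, with 170 and 160 CPM. The more abundant eef1g (1502 and 1050 CPM at 2 dpf, 1063 and 1541 at 4 dpf) and eef1b2 (734 and 555, then 513 and 1194) overlapped between these stages. At 9 dpf 0 of the 10 were called in either direction (edgeR; by the p-value alone 1 was lower), where 0.818% of all genes were called lower and 0.461% higher, and the median was -0.18. Of 52 initiation factor genes 5 were called higher and 0 lower at 4 dpf, a smaller share called higher than the 13.8% of all genes, and the median was 0.05. Of 54 genes listed as ribosome assembly factors 16 rose and 0 fell at 4 dpf, also beside 13.8% and 5.99% of all genes, the median being 0.35. This list includes RNA polymerase I genes (polr1a to polr1e), and eif6 is in both this list and that of initiation factors. Among the 16 were utp3, at 1.84, utp11, at 1.77, and nip7, at 1.76. At 9 dpf 1 assembly factor was called higher, nop10, a part of the particles that modify ribosomal RNA, at 1.26, and the median was 0.04 where that of the ribosomal proteins was -0.61.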

How the data were processed

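Whole-body RNA of tra catfish at 7 stages was sequenced after ribosomal RNA depletion, as 2 libraries per stage. Per the submitters' processing notes and the study's methods, the authors used Trimmomatic 0.36 for trimming and STAR 2.7.0 for alignment to a tra catfish assembly, and deposited HTSeq counts per gene, with replicates in separate columns. HTSeq's version, strand setting and treatment of reads matching several genes are not given in the sources used here, so near-identical copies may share counts. No sample column was left unused (0).

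From the deposited counts, edgeR 4.0.16 (R 4.3.3) filtered low genes (filterByExpr), scaled by TMM and fitted all 14 libraries with a mean per stage. Quasi-likelihood p-values were adjusted by Benjamini-Hochberg over 19310 genes, and a gene was called where the adjusted p was under 0.05 and the log2 fold change passed 1 in size. Each SE is the size of the log2 fold change over the square root of its F statistic, from the fit of all 14 libraries. Log2 CPM used a prior count of 2. The fits were also run on simulated counts with known changes. Those counts had the same spread in every stage, unlike the data, so that run does not test the calls made here. LOC identifiers were named from a RefSeq table of another assembly (10538 of 11307 found), so no coordinates are given, and no sequence was used. Whether replicate numbers pair libraries across stages is not given in the sources used here. Deviations from stage means correlated at -0.16 to 0.06 over 21 stage pairs. Such correlations cannot settle the question, since they do not show which fish or libraries were handled together.

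Genes named with values were the 5 most changed called members of each comparison and direction, like-named genes, the 10 members furthest from the median profile, the 5 highest, lowest and least variable, and fau and rack1; rps2, rps16, rpl11, rps27a and the LOC genes were added after their values were seen, and some genes under this rule are not reported here. Members and lists were chosen with earlier results of these data known. Alternatives were DESeq2 1.42.0, other scalings, filters, thresholds and samples, a replicate block, and each library left out. Figures were drawn with matplotlib 3.10.9.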

Additional observations from a re-analysis of the deposited data

How the results depend on the processing

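Counts of called members are read against 32, 18, 2, 11, 5 and 2 for the adjacent comparisons in order of age, 9 for 11 against 2 dpf and 57 over any stage. Shares over all genes are given only for the main fit, so counts from the other fits have no background of their own here. With no fold threshold they were 36 at 6 against 4 dpf, 6 at 8 against 6, 17 at 9 against 8, 9 at 10 against 9, 5 at 11 against 10 and 34 at 11 against 2 dpf. With library totals in place of TMM they were 17 at 4 against 2, 4 at 8 against 6, 7 at 9 against 8 and 22 at 11 against 2 dpf, and the median log2 fold change was -0.57 at 8 against 6 and -0.82 at 11 against 2 dpf. That scaling moved the all-gene median by -0.25 at 4 against 2, -0.21 at 8 against 6, 0.13 at 9 against 8 and -0.28 at 11 against 2 dpf. With only the 4 libraries compared, 14 were called at 4 against 2 and 1 at 8 against 6 dpf. The latter was also 1 with DESeq2, with RLE scaling and with TMM factors computed without the ribosomal proteins. With the pairs of 6, 9 and 11 dpf summed, which leaves fewer libraries, the counts were 0 at 8 against 6, 9 against 8, 10 against 9 and 11 against 10 dpf (edgeR; 2, 11, 5 and 2 at an unadjusted p), 36 over any stage, 30 at 4 against 2, 15 at 6 against 4 and 6 at 11 against 2 dpf.

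Leaving out 1 library in turn gave 19 to 47 at 4 against 2, 17 to 35 at 6 against 4 (of the 24 without replicate 2 of 4 dpf, 9 were higher), 1 to 3 at 8 against 6, 0 to 12 at 9 against 8, 0 to 5 at 10 against 9, 0 to 2 at 11 against 10, 6 to 21 at 11 against 2 dpf (1 and 2 of these higher) and 53 to 68 over any stage. The lone library of a stage is then assumed to vary like the others. The median log2 fold change at 6 against 4 dpf ranged from -0.97 to 0.068, turning positive without replicate 2 of 4 dpf; the cause was not tested. No call of the 29 gene results among the 5 most changed members of each comparison reversed. Some of the 29 were weaker, mainly when the pairs of 6, 9 and 11 dpf were summed or 1 library was left out.

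With the replicate number as a block, the counts were 30, 17, 2, 11, 5 and 2 in order of age. They were 8 for 11 against 2 dpf and 57 over any stage, so the block moved no count by over 1.5 times. At 0 to 8 counts, rpl3l cannot be compared between stages at this depth.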

Other observations

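Genes outside the family with the most similar course were sought by the root mean square distance of 7 centred stage means from the members' median profile, as a description with no test. The nearest was LOC113523823, unnamed in the reference table, at 0.059 and a mean of 15.8 CPM, followed by pdcl3, a phosducin-like protein, at 0.095, ssbp1, which binds mitochondrial single-stranded DNA, at 0.12, gfer at 0.12 and atp5mg, a subunit of mitochondrial ATP synthase, at 0.12. Further subunits of the respiratory chain and ATP synthase among the nearest 15 were atp5pd, atp5po and ndufa4a, at 0.12 to 0.13, and the initiation factor eif1axb was at 0.13.

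Among 11 genes that regulate the synthesis of ribosomal proteins, 2 were called higher and 2 lower at 4 against 2 dpf, where 13.8% of all genes were called higher and 5.99% lower. The repressors of cap-dependent translation eif4ebp3 and eif4ebp3l were higher, with log2 fold changes of 2.49 and 1.76, and the Myc genes mycla and mycn were lower, with -1.74 and -1.02. Of the other Myc genes none was called. myca had 38.0 and 41.0 CPM at 2 dpf and 38.6 and 68.2 at 4 dpf, and mycb 47.4 and 48.2, then 53.5 and 68.5. mych had 9.03 and 7.77, then 10.1 and 8.25. Levels of mycla were low, 6.21 and 5.14, then 2.40 and 1.20, as were those of eif4ebp3, 6.91 and 2.11, then 16.3 and 32.2. eif4ebp3l had 37.1 and 24.9, then 56.4 and 150, so its rise was larger in replicate 2. At 9 against 8 dpf 0 of the 11 were called (edgeR; 0 by the adjusted p alone), where 0.818% of all genes were called lower and 0.461% higher.

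Of 52 initiation factor genes, 4 were called lower and 1 higher over the whole span from 2 to 11 dpf, where 8.22% of all genes were called lower and 12.6% higher, so the share lower was near that of all genes. The 4 were eif3ha, at -1.45, eif2b2, at -1.28, eif3f, at -1.10, and eif4a3, at -1.03, and eif3j was higher, at 1.42. Of the 54 genes in the assembly factor list 2 were called lower and 0 higher over the same span, both smaller shares than those of all genes. The 2 were gar1, at -1.26, and fbl, the methyltransferase of the ribosomal RNA modification particles, at -1.14.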
